A study of Homo sapiens with 6 samples.

Results

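The IFIT genes encode interferon-induced proteins with tetratricopeptide repeats. The 4 genes described here, IFIT1, IFIT2, IFIT3 and IFIT5, were chosen by name from a deposited table of 2885 genes, and all 4 were found in it, each as 1 row. The table comes from RNA sequencing of RKO cells, a long-established line from a human colon carcinoma. It holds 3 libraries labelled shKMT5A, whose genotype is given as a KMT5A knockdown, and 3 libraries labelled shNC, which serve as the control and whose genotype is given as wild type. KMT5A is a lysine methyltransferase known for its action on histone H4, and the title of the series concerns its methylation of IRF3, a transcription factor that switches on IFIT genes. No other drug, virus or interferon treatment is named in the labels, and they do not state whether the libraries of a group carried the same hairpin or came from separate cultures. The p-values thus reflect how far these libraries scatter, and that scatter may be technical.

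KMT5A itself was higher in the libraries labelled shKMT5A, with 4015, 3898 and 3297 normalized counts there, against 1298, 1245 and 1307 in those labelled shNC. That goes against the label. All directions below are differences between libraries as labelled, with more KMT5A RNA, not less, under the knockdown label. Every gene of the table had passed a selection by the authors, since no adjusted p in it exceeded 0.0499 and no log2 fold change lay between -1 and 1. Passing a test within it is therefore largely built in. Reads assigned to the table's genes numbered 1891460 to 1980866 in the libraries labelled shKMT5A and 1363382 to 1369655 in those labelled shNC, and the total depth is unknown. Of the 10 colon epithelial markers looked up, 5 were in the table, 2 higher and 3 lower in the libraries labelled shKMT5A. The 3 lower ones were the keratins KRT8, KRT18 and KRT19, abundant in both groups, and the 2 higher ones were barely detected, MUC2 with means of 10.9 and 0.973 normalized counts (libraries labelled shKMT5A and shNC) and CDH17 with 4.10 and 0. Of 10 leukocyte markers 3 were in the table, with a summed level of 967 to 1269 normalized counts in the libraries labelled shKMT5A and 82.8 to 114 in those labelled shNC, nearly all of it from HLA-DRA. HLA-DRA and CD8A were higher and CD79A was lower in the libraries labelled shKMT5A. Fibroblast and endothelial cells were represented by 5 of 10 markers, with sums of 64.9 to 81.9 and 150 to 169 normalized counts in the same order. Of these, COL3A1 (means of 65.7 and 14.2) and CDH5 (4.74 and 0) were higher in the libraries labelled shKMT5A, while LUM (0.341 and 111), DCN (0 and 15.1) and TEK (2.04 and 18.7) were lower. The part of these marker genes in the results below was not tested.

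IFIT proteins are made in most cell types after interferon or direct IRF3 activation and recognise RNA that does not look like finished cellular mRNA. IFIT1 binds capped RNA that lacks the ribose methylation of mature mRNA and keeps it from the translation machinery, and IFIT3 binds IFIT1 and steadies that grip. IFIT2 binds AU-rich double-stranded RNA and pairs with IFIT3, whereas IFIT5 acts alone on RNA with phosphorylated ends.

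All 4 IFIT genes were higher in every library labelled shKMT5A than in any library labelled shNC. IFIT1, IFIT2 and IFIT3 were 33.3 to 57.2 times as high by the ratio of group means, and IFIT5 was 5.57 times as high. All 4 passed the limma test at an adjusted p of 0.05 across the table, which 57.4% of its genes did in that direction. Genes whose groups did not overlap and that were higher made up 57.2% of the table, so the direction and the lack of overlap do not set the IFIT genes apart from it. The sizes for IFIT1, IFIT2 and IFIT3 lie further out, at log2 fold changes of 5.05 to 5.83, while IFIT5 lies at 2.48. The median of the 4 genes was 5.36, beside 1.13 for all genes tested and 1.81 for those that were higher.

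IFIT1 (ENSG00000185745, GRCh38 chromosome 10, 89392546 to 89406486, plus strand) had 15045, 12577 and 14924 normalized counts in the libraries labelled shKMT5A, against 263, 230 and 252 in those labelled shNC. The lowest library labelled shKMT5A was thus 47.9 times as high as the highest library labelled shNC. This gave means of 14182 ± 1392 and 248 ± 16.7 (SD, n = 3 each) and a log2 fold change of 5.83 ± 0.081 (SE; adjusted p = 1.13e-12, limma). Among all genes of the table this was the 33rd highest log2 fold change. IFIT1 was also the 19th most abundant row in the libraries labelled shKMT5A, against 775th in those labelled shNC.

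IFIT2 (ENSG00000119922, 89283694 to 89309276, plus strand) had 9351, 8055 and 9294 normalized counts in the libraries labelled shKMT5A, against 172, 165 and 182 in those labelled shNC. It had the lowest count of the 4 genes in all 3 libraries labelled shNC, and its groups were at least 44.3-fold apart. This gave means of 8900 ± 732 and 173 ± 8.63 (SD, n = 3 each) and a log2 fold change of 5.68 ± 0.075 (SE; adjusted p = 1.05e-12, limma).

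IFIT3 (ENSG00000119917, 89327894 to 89340971, plus strand) had 12984, 11773 and 13103 normalized counts in the libraries labelled shKMT5A, against 384, 378 and 376 in those labelled shNC. The libraries labelled shNC lay closer together for IFIT3 than for the other members. This gave means of 12620 ± 736 and 379 ± 3.80 (SD, n = 3 each) and a log2 fold change of 5.05 ± 0.058 (SE; adjusted p = 1.05e-12, limma).

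IFIT5 (ENSG00000152778, 89414586 to 89421001, plus strand) had 2131, 2042 and 2310 normalized counts in the libraries labelled shKMT5A, against 426, 376 and 363 in those labelled shNC. Its groups did not overlap either, although the lowest library labelled shKMT5A was only 4.80 times as high as the highest one labelled shNC. This gave means of 2161 ± 136 and 388 ± 33.1 (SD, n = 3 each) and a log2 fold change of 2.48 ± 0.080 (SE; adjusted p = 4.29e-10, limma). It ranked 469th by log2 fold change. Exact permutation tests, two-sided, returned p = 0.1 for each of the 4 genes, and no smaller p can be had with 3 against 3 libraries. In the authors' deposited table the log2 fold changes of the 4 genes ran from 2.48 to 5.84, with IFIT1 highest. In bulk RNA more cells that express a gene and more RNA per cell cannot be told apart.

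**Figure D1:**
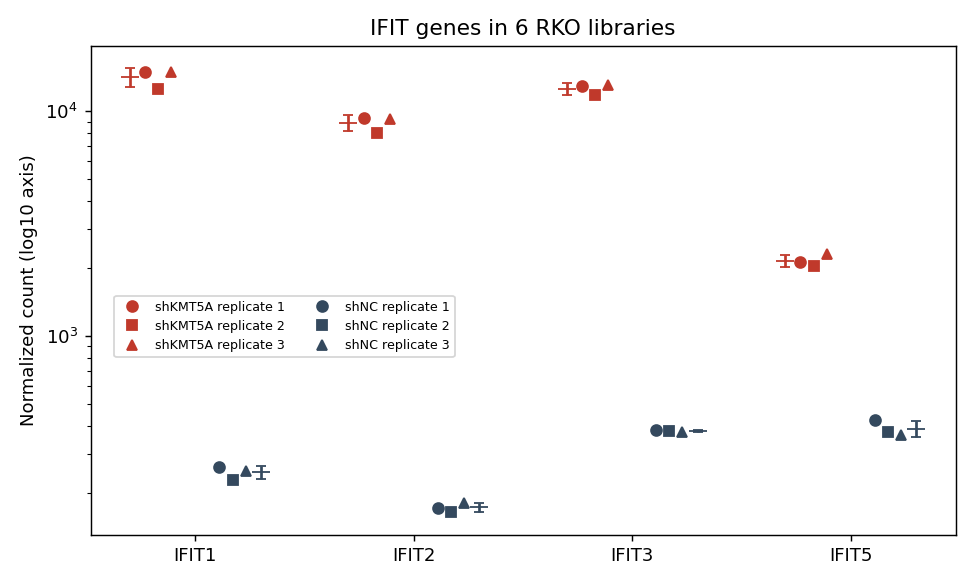
Normalized count (log10 axis) of the 4 IFIT genes in each library, with libraries labelled shKMT5A in red on the left and those labelled shNC in dark blue on the right of each gene; symbols mark the replicate, and bars beside them the mean ± SD (n = 3). IFIT1 averaged 14182 and 248, and IFIT5 averaged 2161 and 388, so IFIT5 lies below the other 3 genes in red but not in blue.

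The order of the genes by level differed between the groups. Dividing each normalized count by the gene's length in the table allows levels of different genes to be compared, though a length that counts every annotated exon need not be that of the transcripts present. In the libraries labelled shKMT5A, IFIT3 was highest with 4780 ± 279 normalized counts per kb, before IFIT1 with 3074 ± 302, IFIT2 with 2170 ± 179 and IFIT5 with 538 ± 34.0. In the libraries labelled shNC, IFIT3 was again highest with 144 ± 1.44, but IFIT5 came next with 96.7 ± 8.25, before IFIT1 with 53.8 ± 3.61 and IFIT2 with 42.2 ± 2.11 (SD, n = 3 each). Within each group the libraries of neighbouring genes in that order did not overlap on the per-kb scale. Without division by length, IFIT5 and IFIT3 could not be ordered in the libraries labelled shNC, where IFIT5 spanned 363 to 426 and IFIT3 376 to 384 normalized counts.

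Summed over the 4 genes, normalized counts were 39510, 34447 and 39631 in the libraries labelled shKMT5A, against 1245, 1149 and 1173 in those labelled shNC, a 31.9-fold difference of means. The sum made up 1.77% to 2.01% of all normalized counts in the table in the libraries labelled shKMT5A and 0.0871% to 0.0958% in those labelled shNC. On the per-kb scale IFIT5 contributed 5.10% ± 0.239 of the summed level of the 4 genes in the libraries labelled shKMT5A and 28.7% ± 1.55 in those labelled shNC. IFIT1 contributed 29.1% ± 0.777 and 16.0% ± 0.666, and IFIT2 20.5% ± 0.200 and 12.6% ± 0.737, in the same libraries. The share of IFIT3 differed least for its size, at 45.3% ± 0.794 in libraries labelled shKMT5A and 42.8% ± 1.17 in those labelled shNC (SD, n = 3 each).

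**Figure D2:**
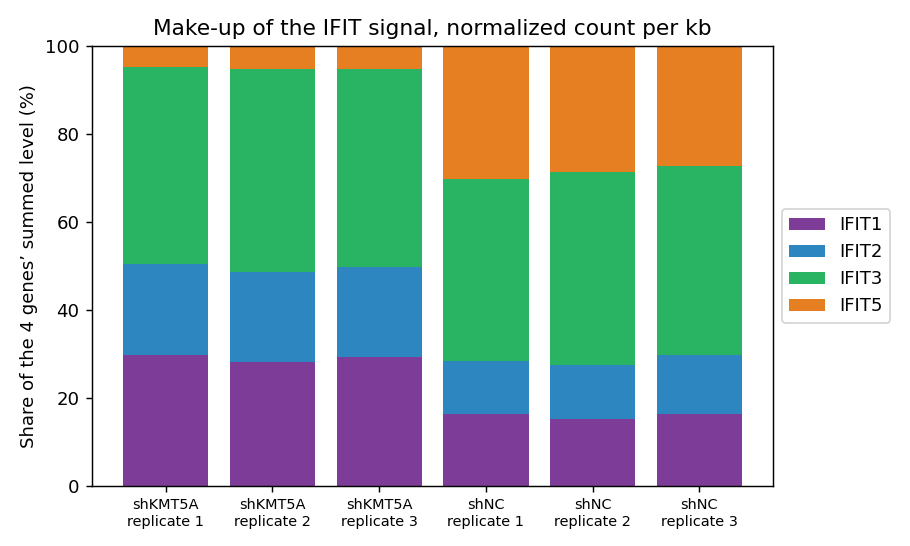
Share of each gene (percent, stacked to 100) in the summed normalized count per kb of the 4 IFIT genes, 1 bar per library, with libraries labelled shKMT5A on the left and those labelled shNC on the right. IFIT5 takes 4.83% to 5.27% of the bar in the libraries labelled shKMT5A and 27.2% to 30.3% in those labelled shNC.

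How far the members differed from each other was judged from ratios between members within each library, which do not depend on how libraries were scaled. All 6 pairs of members were compared. IFIT1 exceeded IFIT5 by 2.62 to 2.82 on the log2 scale in the libraries labelled shKMT5A, whereas it lay below IFIT5, at -0.708 to -0.526, in those labelled shNC. The log2 fold change of IFIT1 was thereby 3.35 ± 0.082 (SE) above that of IFIT5, a factor of 10.2. The fold changes of IFIT2 and IFIT3 were 3.20 ± 0.101 and 2.58 ± 0.069 above that of IFIT5.

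Among the 3 members with large differences the gaps were smaller. The log2 fold change of IFIT1 was 0.78 ± 0.063 (SE) above that of IFIT3, and that of IFIT2 was 0.63 ± 0.050 above that of IFIT3. IFIT1 and IFIT2 were nearest, with a gap of 0.15 ± 0.047, which ran from 0.037 to 0.22 over all combinations of 1 library from each group. In all 6 pairs the within-library ratios of the groups did not overlap, and each exact two-sided permutation test gave p = 0.1, or 0.1 when adjusted over the 6 pairs, the smallest value this design allows. This test, with 3 against 3 libraries, can therefore not call any of these differences at 0.05.

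**Figure D3:**
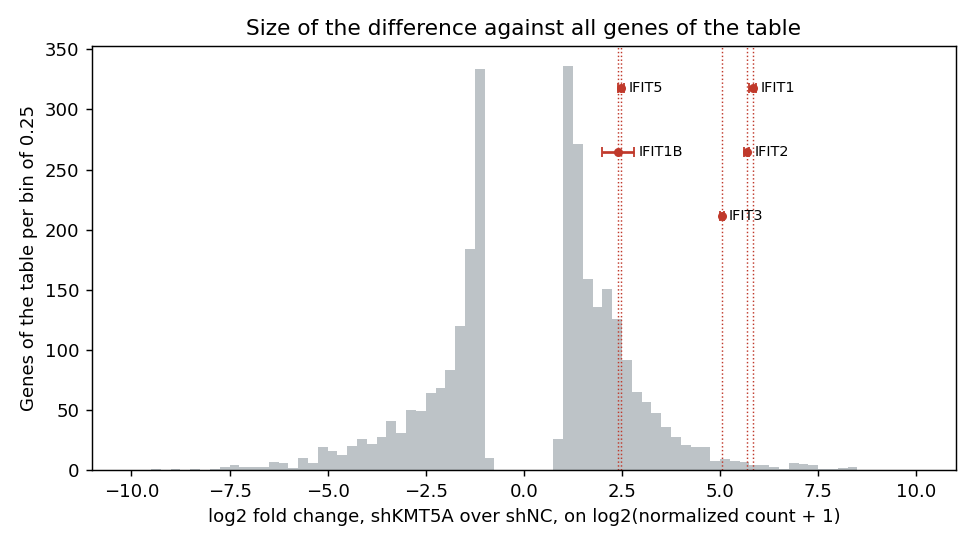
Log2 fold change, libraries labelled shKMT5A over those labelled shNC, of all 2885 genes of the table (grey bars, genes per bin of 0.25) with the IFIT genes and IFIT1B as red points (bars are the standard error, and the height of a point has no meaning). IFIT1, IFIT2 and IFIT3 lie between 5.05 and 5.83, past nearly all genes of the table, and IFIT5 lies at 2.48. The gap around 0 comes from the authors' selection.

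Replicates of a group were close. The coefficient of variation in the libraries labelled shKMT5A was 9.81% for IFIT1, 8.23% for IFIT2, 5.83% for IFIT3 and 6.31% for IFIT5, where counting noise alone gives 0.848% to 2.17%. In the libraries labelled shNC it was 6.71%, 4.99%, 1.0% and 8.53% for the same genes, where counting noise alone gives 4.99% to 7.47%. IFIT2 and IFIT3 thus varied no more than counting noise in the libraries labelled shNC. In the libraries labelled shKMT5A, replicate 2 had the lowest value for all 4 members, which stood at -11.3%, -9.49%, -6.71% and -5.5% from the group mean for IFIT1, IFIT2, IFIT3 and IFIT5. Replicate 2 was likewise lowest for 34 of 36 other interferon-stimulated antiviral genes in the table, which is 94.4%, and for 37.2% of all genes that were higher. Without it the log2 fold changes of the members were between 2.51 and 5.91, within 0.09 of those from all libraries.

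The IFIT genes lie side by side within 137 kb of chromosome 10, in the order IFIT2, IFIT3, IFIT1B, IFIT1 and IFIT5, all on the plus strand. IFIT1B is a close relative of IFIT1. It had 8.38, 4.09 and 4.97 normalized counts in the libraries labelled shKMT5A, against 0, 0.963 and 0 in those labelled shNC. Its 17 reads against 1 give a ratio of 18.1, with a 95% exact binomial interval of 2.82 to 751 that covers counting error only. The coding sequences of IFIT1 and IFIT1B were 79.0% identical over their aligned bases, against 61.3% to 72.7% for pairs among the 4 members. Of the distinct stretches of 50 bases in the IFIT1B transcript, 1.98% occur unchanged in IFIT1, which had 41677 reads in the libraries labelled shKMT5A and 771 in those labelled shNC, so the few IFIT1B reads are uncertain. Stretches shared with any other annotated gene made up 1.03% in IFIT1, 8.87% in IFIT2, mostly with AL353751.1, 3.84% in IFIT3 and 0% in IFIT5.

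LIPA, which encodes lysosomal acid lipase, runs along the opposite strand across IFIT1, IFIT1B, IFIT3 and IFIT2, and 28 bases lie between its upstream edge and the start of IFIT5. It had 3992, 3836 and 3862 normalized counts in the libraries labelled shKMT5A, against 1248, 1197 and 1200 in those labelled shNC. The groups did not overlap, and the difference was 1.68 ± 0.051 (SE) on the log2 scale (limma, adjusted p = 3.10e-10). Exons of LIPA share 65 bases with those of IFIT2 and none with the other members. The non-coding AL353751.1, on the same strand as IFIT2, shares 356 of the 4101 exon bases of IFIT2, or 8.68%. It averaged 22.7 ± 4.61 normalized counts in the libraries labelled shKMT5A and 2.61 ± 3.73 in those labelled shNC (SD, n = 3 each). The sources used here do not give whether counting used the strand, and reads from these shared stretches cannot be assigned with certainty.

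Within 1 Mb of the cluster the annotation lists 20 protein-coding genes. Beside the 4 members, 4 of them were in the table, namely IFIT1B, LIPA, STAMBPL1, a deubiquitinase, and ACTA2, smooth muscle actin. All 4 were higher in the libraries labelled shKMT5A, as were 57.4% of all genes of the table. With so few genes, a difference of the locus from the table was not tested. STAMBPL1 averaged 206 ± 25.4 and 98.4 ± 5.26 normalized counts, and ACTA2 37.3 ± 6.33 and 16.8 ± 5.55 (libraries labelled shKMT5A and shNC, SD, n = 3 each). ACTA2 no longer passed when libraries were scaled to equal totals of the preselected genes (adjusted p = 0.0719, limma). CH25H, FAS, SLC16A12, PANK1 and KIF20B are not analysed here.

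**Figure D4:**
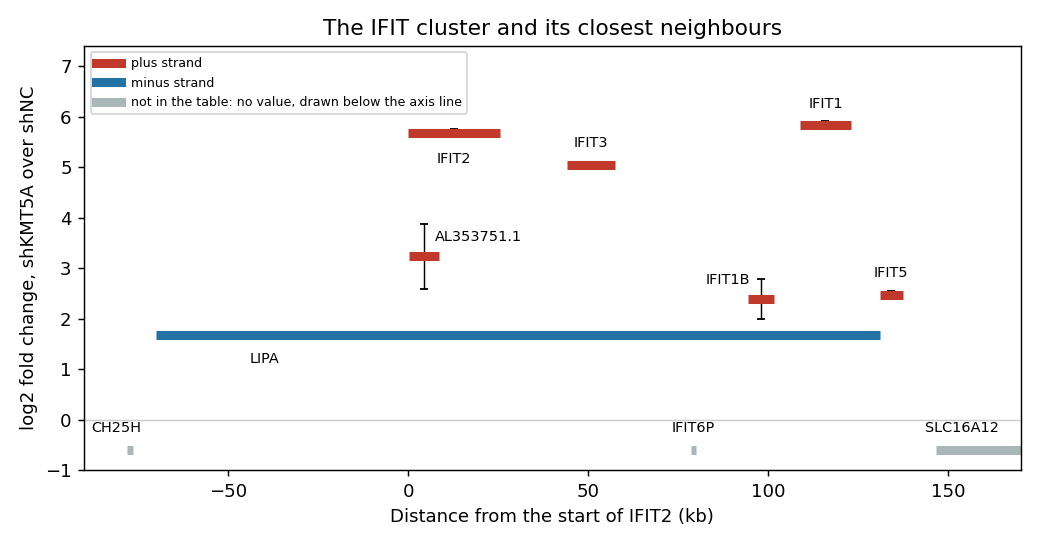
Log2 fold change (libraries labelled shKMT5A over those labelled shNC, vertical bars are the standard error) of genes drawn at their place relative to the start of IFIT2, in kb, with red for the plus strand and blue for the minus strand; grey genes have no value in the table. IFIT2, IFIT3 and IFIT1 lie above 5, IFIT5 at 2.48, and LIPA, which spans them, at 1.68.

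Promoter windows from RefSeq (GRCh38.p14, 250 bases before to 50 after the start) were matched by symbol for 3 of the 4 members, IFIT1, IFIT3 and IFIT5, and for IFIT1B. They were searched on both strands for the core of the interferon-stimulated response element (ISRE), a site bound by IRF proteins, spelled GAAANNGAA or TTCNNTTTC. Windows are shown with ISRE cores in capitals for IFIT1, with the largest difference, and IFIT3, with the highest level per kb. Those of IFIT5, with the smallest difference of the 4 members, and of the barely detected IFIT1B follow. In this order the windows lie at chr10:89392373-89392672, chr10:89327747-89328046, chr10:89414318-89414617 and chr10:89377806-89378105, all on the plus strand.
IFIT1: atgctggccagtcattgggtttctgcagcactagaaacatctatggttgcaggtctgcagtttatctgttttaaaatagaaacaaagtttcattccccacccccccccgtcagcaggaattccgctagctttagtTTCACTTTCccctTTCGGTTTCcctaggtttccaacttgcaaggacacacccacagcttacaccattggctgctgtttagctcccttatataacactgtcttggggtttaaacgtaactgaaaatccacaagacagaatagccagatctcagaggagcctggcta
IFIT3: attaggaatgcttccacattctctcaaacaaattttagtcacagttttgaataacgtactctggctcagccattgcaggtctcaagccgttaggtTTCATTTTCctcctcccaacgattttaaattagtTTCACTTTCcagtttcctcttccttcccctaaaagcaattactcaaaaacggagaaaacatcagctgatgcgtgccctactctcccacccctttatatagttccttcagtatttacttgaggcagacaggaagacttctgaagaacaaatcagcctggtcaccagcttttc
IFIT5: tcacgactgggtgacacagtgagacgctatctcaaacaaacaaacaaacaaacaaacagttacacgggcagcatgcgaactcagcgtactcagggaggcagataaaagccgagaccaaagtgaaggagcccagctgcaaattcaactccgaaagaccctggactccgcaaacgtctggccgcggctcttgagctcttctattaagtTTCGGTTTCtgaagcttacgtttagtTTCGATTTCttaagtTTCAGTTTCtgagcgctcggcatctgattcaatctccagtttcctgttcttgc
IFIT1B: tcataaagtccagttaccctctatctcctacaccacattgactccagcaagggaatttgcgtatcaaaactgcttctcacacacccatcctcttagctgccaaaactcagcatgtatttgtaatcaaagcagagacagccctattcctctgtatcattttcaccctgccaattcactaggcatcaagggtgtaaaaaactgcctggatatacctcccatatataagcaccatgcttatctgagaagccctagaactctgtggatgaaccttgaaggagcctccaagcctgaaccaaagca

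The window of IFIT1 held 2 ISRE cores, at -115 to -107 and -102 to -94, counted from the start as base 1 with -1 before it. That of IFIT3 held 2, at -155 to -147 and -121 to -113, and the window of a second RefSeq start of IFIT3 held 3, of which 2 overlap. IFIT5 held 3, closer to its start, at -44 to -36, -18 to -10 and -3 to 6. In IFIT1B the letters were not found. Of all 35116 promoter windows of this length 8.11% held at least 1 ISRE core, 0.701% at least 2 and 0.0883% at least 3. At least 1 core was held by 12.7% of windows of the genes that were higher, by 4.71% of windows of those that were lower, and by 59.5% of the 42 windows of other interferon-stimulated antiviral genes in the table. IFIT5, with 3 cores, had the smallest difference of these members, and the second window of IFIT3 also held 3. IFIT2 had no window, and a relation of core number to the size of the difference was not tested. The GAS core TTCNNNGAA and TATAAA were found in none of these 5 windows, and 7.66% and 7.33% of all windows held them. A match describes letters and was not tested as a binding site.

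**Figure D5:**
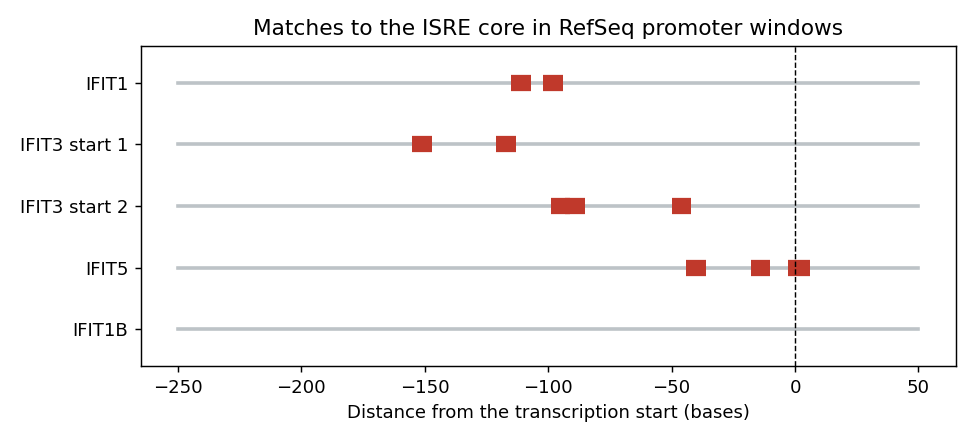
Position of ISRE core matches (red blocks) in the promoter windows of IFIT1, IFIT3 (at both of its RefSeq starts), IFIT5 and IFIT1B, by distance in bases from the transcription start (dashed line). Matches lie between -155 and -94 in IFIT1 and the first IFIT3 window, and between -44 and 6 in IFIT5.

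Genes that act upstream of the IFIT genes were also higher wherever a list gene had a row, in a table of which 57.4% were higher. Of 11 sensors and adaptors, 6 had a row and each of the 6 was higher, at a median of 2.90 on the log2 scale. RIGI, a cytosolic sensor of viral RNA, had 7602, 6572 and 7323 normalized counts in the libraries labelled shKMT5A, against 330, 289 and 286 in those labelled shNC. Of 10 kinases and transcription factors 5 had a row, each of them higher, and their median log2 fold change was 2.66. STAT2, a transcription factor activated by interferon receptors, averaged 4544 ± 311 and 694 ± 36.7, and IRF9, its DNA-binding partner at the ISRE, 418 ± 31.3 and 65.4 ± 9.14 (normalized counts in libraries labelled shKMT5A and shNC, SD, n = 3 each). IRF3, IRF7 and TBK1 are not analysed here.

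Of 13 interferon ligands and receptors 3 were counted, and all 3 were higher (57.4% in the whole table). IFNL1, a type III interferon, had 13.6, 13.3 and 7.95 normalized counts in the libraries labelled shKMT5A and no read in those labelled shNC, so it was at least 12-fold higher, with 3 counts in the whole shNC group taken as the floor. A row named IFNB1 carries the position of IFI27 and was counted in no list. Of 7 inhibitors of interferon signalling 3 had a row, each of them higher, again beside 57.4% in the whole table. USP18, which blocks the type I interferon receptor, averaged 2479 ± 293 and 257 ± 15.2 normalized counts. SOCS1, an inhibitor of JAK kinases, averaged 48.3 ± 3.90 and 14.2 ± 1.09 (SD, n = 3 each, libraries labelled shKMT5A and shNC).

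Of 39 other interferon-stimulated antiviral genes 36 had a row, and each of the 36 was higher (57.4% in the whole table), at log2 fold changes of 1.02 to 8.37 around a median of 3.51. Only 5 of them exceeded IFIT1 in log2 fold change, among them MX2, a GTPase that blocks viral capsids, with 8.29, and 26 of them exceeded IFIT5. The list and its members were chosen with earlier results of these data known. The authors' selection left only genes that differ, so passing the test was largely built in, though it did not set the direction. Among 18 factors of RNA ends and translation initiation, CMTR1 and XRN1 were in the table. CMTR1 adds the ribose methyl group that shields cellular mRNA from IFIT1, and it averaged 2905 ± 190 and 1213 ± 89.3 normalized counts. XRN1, which degrades uncapped RNA, averaged 2567 ± 78.1 and 1052 ± 67.2 (SD, n = 3 each, libraries labelled shKMT5A and shNC).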

How the data were processed

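RNA of 3 shKMT5A and 3 shNC RKO libraries was measured. Tools listed in the submitters' processing notes were DESeq2 1.20.0, featureCounts 1.5.0-p3, HISAT2 2.0.5, CASAVA 1.8 and fastp, with the build GRCh38. The deposited signal values are counts of reads scaled by the authors with a single factor for each library: dividing each column by what a single read is worth in it gave whole numbers (within 0.001) for 100% of its values. Per the file headers, the authors also deposited log2 fold changes and gene lengths. Raw and adjusted p-values in the deposited table come from the authors as well.

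All 2885 genes had a mean of at least 1 and were tested with limma 3.58.1 (trend, robust; R 4.3.3) on log2(value + 1), libraries labelled shKMT5A minus shNC; p-values were adjusted by Benjamini-Hochberg over all genes and read at 0.05. This scale understates changes of low genes. The fit was tested on simulated data in which most genes did not change, unlike in this preselected table. Alternatives were edgeR 4.0.16 on reads recovered from 5 libraries (the reads of shKMT5A replicate 3 were left out), pseudocounts of 0.1 and 10, a minimum mean of 10, equal medians or totals, a replicate block and leaving out each library. Ratios between members used exact permutation tests (scipy 1.17.1). Positions and lengths near the cluster were identical to GENCODE 29. Named genes were the members, KMT5A, list genes, rows within 1 Mb and the 3 genes nearest in profile to each member. Members and lists were chosen with earlier results of these data known. Other genes are not analysed here.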

Additional observations from a re-analysis of the deposited data

How the results depend on the processing

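All 4 IFIT genes stayed higher and past the threshold in every alternative run, which the authors' selection favours. Leaving out 1 library gave log2 fold changes of 5.78 to 5.91 for IFIT1, 5.64 to 5.75 for IFIT2, 5.02 to 5.10 for IFIT3 and 2.43 to 2.54 for IFIT5. Scaling to equal medians shifted the median of all genes by -0.24 and scaling to equal totals by -0.57. With edgeR and TMM the shift was -0.48 over the genes it tested. These scalings were computed from the preselected genes of the table, so they can take out part of the difference itself. The members' lowest log2 fold changes, under equal totals, were 5.25, 5.10, 4.47 and 1.90 for IFIT1, IFIT2, IFIT3 and IFIT5. Differences between members do not depend on scaling, and no pair changed direction with a pseudocount of 0.1 or 10 or without any 1 library, where the gap between IFIT1 and IFIT2 ran from 0.13 to 0.20. The counts of higher and lower genes, 1655 and 1228, were 1286 and 1130 with edgeR. That run tested 2489 genes, used 5 libraries and scaled by TMM, and the part of each in the lower counts was not tested. The replicate numbers did not pair the libraries (correlations of deviations -0.0354, -0.0381 and 0.000878 for numbers 1, 2 and 3), and the replicate block left the counts at 1655 and 1228. The filter at a mean of 1 removed no gene. Precision of IFIT1B and AL353751.1 is limited by few reads.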

Other observations

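For each member, the genes outside the family with the nearest profiles over the 6 libraries were looked up. Distance was the root mean square difference of log2(value + 1), centred on the shNC mean. After this centring, distance mainly measures how alike the log2 fold changes are, so a near place is not separate evidence. Nearest to IFIT2 was GPR15, a receptor known for guiding T cells to the colon, at 0.073, and it was also the nearest non-member to IFIT1, at 0.148. GPR15 averaged 2882 normalized counts in the libraries labelled shKMT5A and 54.8 in those labelled shNC. The others for these members were the pseudogene RHOT1P3, COL4A6, a collagen chain, and AMPH, a protein of membrane curvature. AMPH had no read in the libraries labelled shNC and 39.8 ± 2.94 normalized counts in those labelled shKMT5A. With pseudocounts of 0.1 and 10, AMPH, RHOT1P3 and COL4A6 all lost their places, which thus depend on the pseudocount. IFIT3 was nearest to IFI6, OASL and OAS1, at 0.122 to 0.143, closer than to IFIT2 at 0.445.

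Nearest to IFIT5 was the non-coding AC116366.1 at 0.025, then IRF1, a transcription factor of the interferon response, at 0.058. APOL6, an apolipoprotein L gene, followed at 0.070. Both AC116366.1 (132468890 to 132473043) and IRF1 (132481609 to 132490798) lie on the minus strand of chromosome 5. AC116366.1 had few reads, 308 in the libraries labelled shKMT5A and 55 in those labelled shNC. IRF1 had 2179, 2079 and 2422 normalized counts in the libraries labelled shKMT5A, against 400, 378 and 379 in those labelled shNC, a log2 fold change of 2.52 beside 2.48 for IFIT5. The closest member to IFIT5 was IFIT3 at 1.82, in 1598th place. With pseudocounts of 0.1 and 10, alternatives chosen after seeing the data, 8 and 6 of the 12 nearest places held the same genes. Among these GPR15, IFI6, OASL, IRF1 and APOL6 kept theirs in both, while OAS1 and AC116366.1 lost theirs with 10.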
